A study of Mus musculus with 70 samples.

Results

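The transcripts described here are those of 8 genes of leptin and insulin receptor signalling, taken by name from the gene TPM table of a mouse brain atlas that holds 34677 genes. They are the receptors Lepr and Insr, the adaptors Irs1, Irs2 and Sh2b1, the transcription factor Stat3, and the inhibitors Socs3 and Ptpn1. All 8 were present in the table, all 8 passed the filter on low counts, and each had counts above 0 in all 70 libraries. The genes were listed by name for their roles in the pathway, with earlier results of these data known.

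Leptin, made by fat cells, and insulin, made by the pancreas, tell the brain how much energy the body holds. Leptin binding to the long form of its receptor activates the kinase JAK2, which phosphorylates STAT3, and STAT3 enters the nucleus and switches on genes that include Socs3. SOCS3 then binds the receptor complex and dampens it, PTP1B (made from Ptpn1) removes phosphate from JAK2 and from the insulin receptor, and SH2B1 enhances JAK2 activity. The insulin receptor phosphorylates the adaptors IRS1 and IRS2, which recruit PI3 kinase. In the brain the long leptin receptor is best known from hypothalamic neurons that control feeding, while short forms with little of the signalling tail are known from the choroid plexus and vessels.

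The study compared brain regions that regulate energy balance with other regions, in C57BL/6 mice without any genetic change or treatment (C57BL/6NTac for the embryos and for the adults, which were males fed chow freely). There were 57 libraries from 18 adult regions at P56, 9 libraries from 4 embryonic regions at E14.5 and 4 libraries from 2 clones of mouse embryonic stem cells (mESC). Adult regions were the hypothalamic nuclei ARH (arcuate), DMH (dorsomedial), VMH (ventromedial), PVH (paraventricular) and LHA (lateral area), the hindbrain nuclei NTS (solitary tract), DVC (dorsal-vagal complex) and PB (parabrachial), the reward regions VTA (ventral tegmental area) and ACB (nucleus accumbens), the cortical areas ACA (anterior cingulate), FRP (frontal pole) and ENT (entorhinal), the cerebellar nuclei CBN, and the cerebellar cortex CENT2 (central lobule), CUL4-5 (culmen), UVU (uvula) and FL (flocculus). Embryonic regions were THy-PHy (the terminal and peduncular hypothalamus), F (forebrain, 1 library), M (midbrain) and H (hindbrain). The mESC clones B6-1 and B6-2 were kept on feeder cells and passaged on gelatin without them before collection, in medium with leukemia inhibitory factor (LIF), CHIR-99021 and the MEK inhibitors CI-1040 and PD0325901, partly conditioned by fibroblasts. Tissue was punched from frozen sections, and a brain library held the pooled tissue of several mice, apart from 1 ACB library from a lone mouse. Pools of different regions shared mice, since there were fewer mice than the pools held together, so p-values measure the spread between pools. A punch holds many cell types, and in bulk RNA fewer cells of a type and less RNA per cell cannot be told apart. Adult, embryonic and mESC samples were collected in separate batches, which means that stage and batch cannot be told apart. The sources list the batches of each adult region without a replicate name, so batches were not tied to single libraries and no within-batch comparison was made.

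The long and short forms of the leptin receptor come from the same gene, and the sequences below are shown because the regional results turn on where they part. Lepr lies on chromosome 4 of GRCm38 (101717404 to 101815352, plus strand). Its 3 full-length coding transcripts share their first 2667 coding bases , which end at position 101792070. After that the long Lepr-201 goes on for 819 coding bases of its own to 1162 codons in all, Lepr-203 for 15 bases to 894 codons and Lepr-202 for 9 bases to 892 codons. Each sequence holds the last 30 shared coding bases in lower case, followed by its own coding bases in capitals (all of them for the short forms, the first 60 for Lepr-201). The own part of Lepr-201 starts at 101814448, that of Lepr-203 at 101811348 and that of Lepr-202 at 101792071, where it reads on into the intron of the others.
Lepr-201: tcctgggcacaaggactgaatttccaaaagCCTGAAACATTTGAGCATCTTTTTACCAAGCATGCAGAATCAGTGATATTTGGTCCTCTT
Lepr-203: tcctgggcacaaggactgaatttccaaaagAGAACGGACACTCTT
Lepr-202: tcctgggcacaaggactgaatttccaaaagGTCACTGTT

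Depth was 13409041 to 20647884 estimated counts per adult library, 9074581 to 22229582 per embryonic library and 12985081 to 18501667 per mESC library. The receptors differed in how many reads stood behind them. Lepr had 12 to 296 counts per library (median 49.5) and Socs3 6 to 1645 (median 32), whereas the other 6 genes had medians of 541.5 to 1839. VTA replicate 1 stood apart from all other libraries, with 39.6% of its TPM on mitochondrial transcripts. It was the lowest adult library for Insr (6.31 TPM), Irs1 (2.60), Irs2 (12.7), Sh2b1 (10.8) and Ptpn1 (9.55), and the calls and ranges of region means that changed without it are given both ways. Among embryonic libraries H replicate 1 was lowest for Irs2 (8.46 TPM) and Sh2b1 (30.02 TPM) and had the fewest neuron markers (summed 1017 TPM), and no call on the 8 genes changed without it. Agrp and Pomc, transcripts of ARH neurons, were highest in ARH, and the stem cell factor Pou5f1 was at 990 to 1081 TPM in the mESC clones and at most 4.27 TPM in any other library. Nr5a1, a VMH factor, was found in VMH (21.4 and 45.9 TPM) and also in ARH (16.8 to 19.7 TPM). The source of that signal was not tested.

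Levels are given as TPM, which is scaled for transcript length. Lepr was a low transcript whose mean was highest among adult regions in ARH. The ARH libraries held 7.28, 10.5 and 5.27 TPM. CBN followed with 6.63, 2.74 and 3.17 TPM, and the CENT2 libraries were lowest with 0.903, 0.844, 0.717 and 0.275 TPM. The mean of ARH exceeded that of CENT2 11.2-fold, yet the ranges of neighbouring regions in the order overlapped in all 17 steps, so that the order between the ends is not resolved. Among all 24 groups the mean was highest in the embryonic hindbrain, where the 3 libraries held 14.04, 4.27 and 9.68 TPM. On the full-length coding transcripts alone, H (4.75 TPM) did not exceed ARH (4.76 TPM). The rest of the H mean lay on short partial transcripts with few reads, as described below.

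Insr, the insulin receptor (chromosome 8, 3122061 to 3279617, minus strand), had a higher mean TPM than Lepr in each of the 24 groups and varied less among adult regions. In B6-1 the means were almost equal, at 2.998 TPM for Insr and 2.995 TPM for Lepr. Adult region means ran from 9.53 TPM in VTA to 17.4 TPM in CUL4-5, a 1.83-fold range, and from 11.1 TPM (1.56-fold) when VTA replicate 1 was left out. No neighbouring regions in its order had separate ranges. Embryonic brain means were 20.6 to 26.7 TPM, and the mESC clones held 2.83 and 3.17 TPM (B6-1) and 4.01 and 5.79 TPM (B6-2).

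The adaptors split into a patterned gene and 2 even genes. Irs1 lies on chromosome 1 (82233101 to 82291416), Irs2 on chromosome 8 (10984681 to 11008458) and Sh2b1 on chromosome 7 (126466994 to 126475424), all on the minus strand. Irs1 was highest in the cerebellar cortex: CUL4-5 held 12.9, 14.2, 14.8 and 12.8 TPM and CENT2 10.6, 11.7, 11.4 and 11.0 TPM. ACB was lowest with 2.80, 2.74 and 3.03 TPM, which gave a 4.79-fold range of means. Ranges were separate between CUL4-5 and CENT2, between CENT2 and UVU (mean 9.55 TPM) and between UVU and FL. In all later steps of the order they overlapped. No other gene of the 8 had more than 1 separate step. Irs2 had means between 23.4 TPM (FRP) and 41.4 TPM (ARH), a 1.77-fold range. Sh2b1 had means between 35.6 TPM (VTA) and 60.3 TPM (ACA), a 1.70-fold range that fell to 1.38-fold without VTA replicate 1, when NTS (43.9 TPM) became the lowest region.

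Stat3 (chromosome 11, 100885098 to 100939540, minus strand) was most abundant in ARH, with 64.3, 65.7 and 63.9 TPM. No other adult library exceeded the 50.3 TPM of VMH replicate 2, and ENT was lowest with 21.7, 22.1 and 19.3 TPM. The means spanned a 3.07-fold range, and the ranges of ARH and VMH did not overlap.

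The inhibitor Socs3 (chromosome 11, 117966079 to 117970047, minus strand) showed a like peak on a much lower level. The ARH libraries held 5.60, 7.93 and 8.63 TPM, the next region, ENT, held 2.37, 3.47 and 3.604 TPM, and the VTA mean was lowest at 0.956 TPM. Means spanned a 7.72-fold range (7.53-fold without VTA replicate 1, when PB was lowest). The mESC clones stood above all brain libraries, with 55.2 and 56.5 TPM in B6-1 and 62.2 and 71.3 TPM in B6-2. Ptpn1 (chromosome 2, 167932057 to 167979385, plus strand) was highest in ACB with 29.9, 36.1 and 29.7 TPM, followed by FRP with a mean of 31.2 TPM, and lowest in VTA with a mean of 13.7 TPM, a 2.33-fold range (2.22-fold without VTA replicate 1, when PB was lowest at 14.4 TPM). All 9 embryonic libraries exceeded all adult libraries in Ptpn1: the lowest embryonic library held 38.6 TPM and the highest adult library 36.1 TPM.

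**Figure D1:**
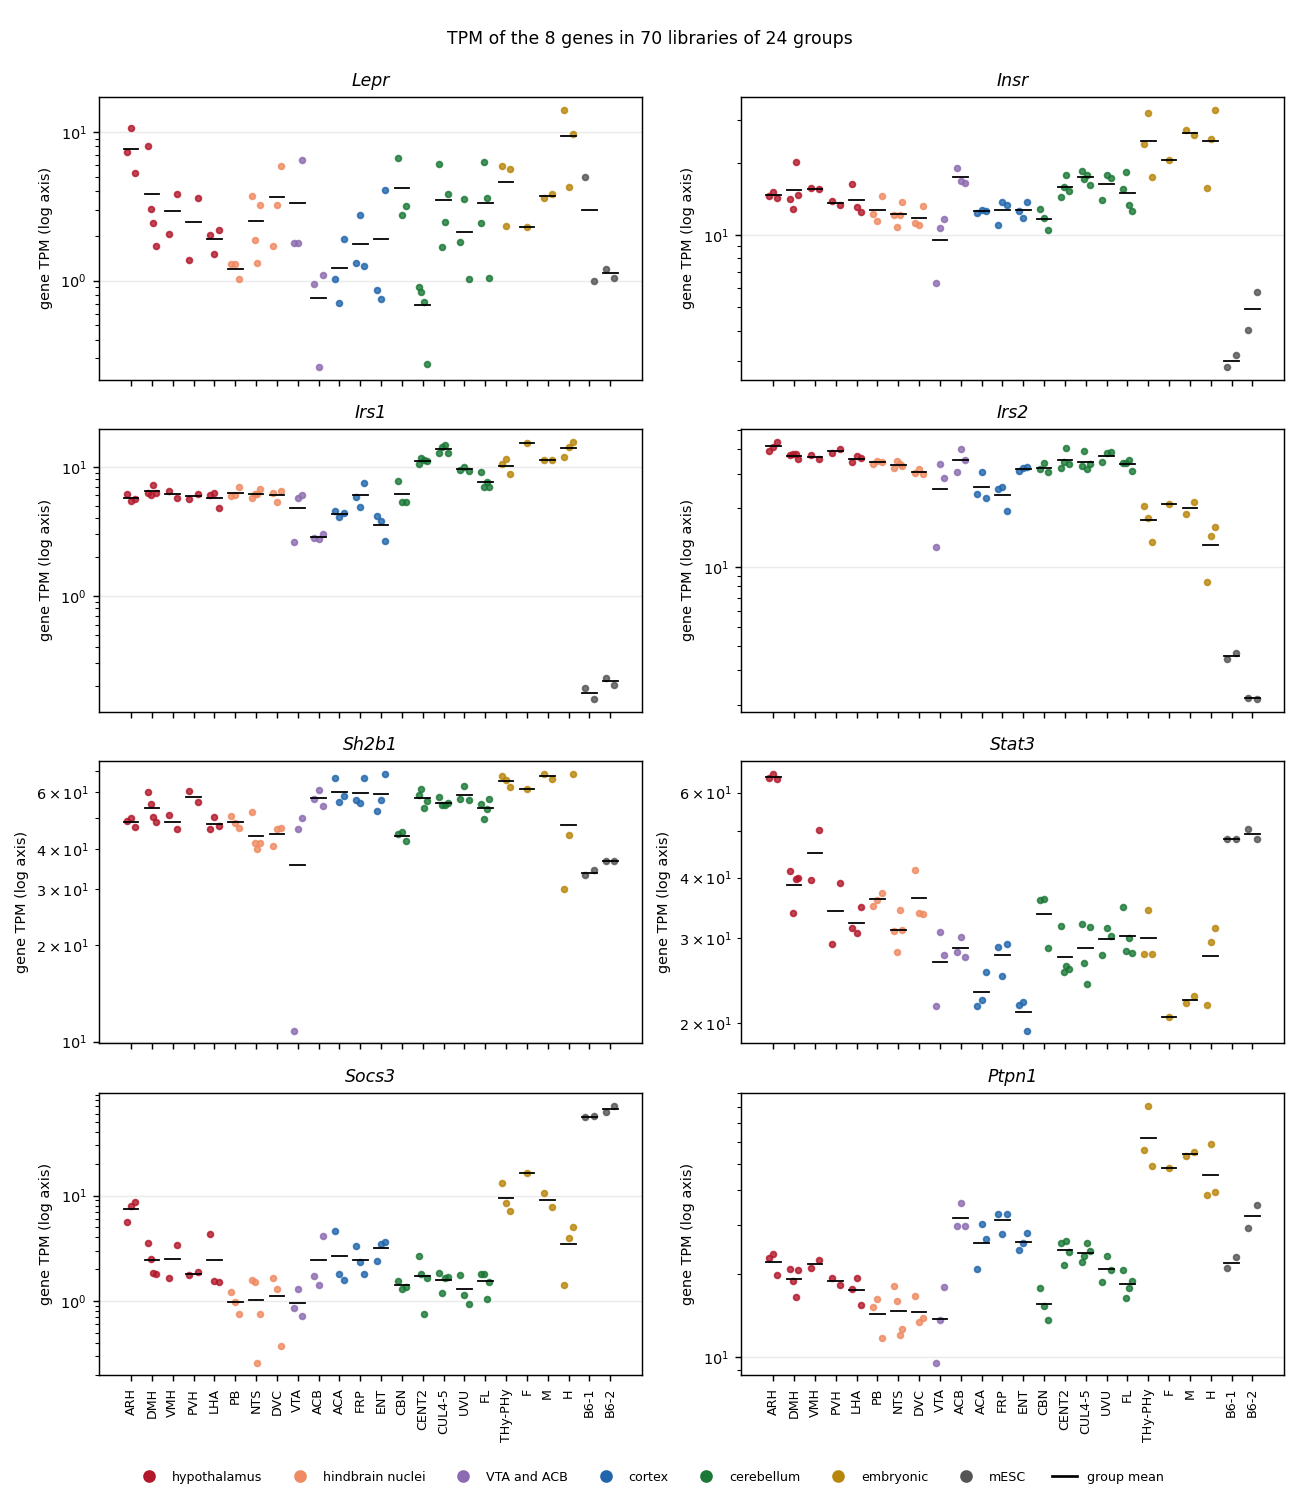
Gene TPM (log axis) of the 8 genes in each of the 70 libraries, ordered by group on the horizontal axis, with points for libraries and a line for the group mean. Lepr, Stat3 and Socs3 have their highest adult mean in ARH, Irs1 has its highest adult means in CUL4-5 and CENT2, and Socs3 lies between 55.2 and 71.3 TPM in the mESC libraries.

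Across the 18 adult regions, all 8 genes differed among regions in edgeR's quasi-likelihood test (adjusted p from 1.1e-20 for Irs1 to 0.00221 for Sh2b1). This was also true of 80.9% of the 19980 genes tested. For 5 of the 8 the fitted region levels also spanned more than 2-fold (56.8% of all genes). When each region was set against the other 17, 50 of the 144 pairs of gene and region were called, 25 higher and 25 lower. Without VTA replicate 1 the pairs were 23 higher and 28 lower, where the same Wald form gave 25 and 27 with all libraries. Over all genes, 37.5% of such pairs were called, 20.3% higher and 17.3% lower. These 18 comparisons share libraries and are not independent. In ARH Lepr, Irs2, Stat3 and Socs3 were higher and Irs1 lower (41.4% of all genes called). The Irs2 call was lost with no filter on low counts (adjusted p = 0.154) and without the mESC libraries (adjusted p = 0.0981, edgeR), and the Irs1 call was lost on TPM (adjusted p = 0.624 and 0.659, limma). The pairs that differed more than 2-fold were 9 (10.9% of pairs over all genes): Lepr higher in ARH and CBN and lower in ACB and CENT2, Irs1 higher in CUL4-5 and lower in ACB, and Socs3 higher in ARH and ENT and lower in NTS. Of these, Lepr in CBN (adjusted p = 0.142 and 0.147) and Socs3 in ENT (adjusted p = 0.0574 and 0.0659) were not called when TPM was tested (limma). No gene of the 8 was called by edgeR in DMH, LHA or PVH (background 29%, 21% and 14.9%), where 1 gene each had an unadjusted p under 0.05. These were Ptpn1 in DMH, Stat3 in LHA and Irs2 in PVH. In VTA (40.9% of all genes called), Lepr was called higher and Insr, Ptpn1 and Sh2b1 lower, but without VTA replicate 1 Ptpn1 alone was still called.

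**Figure D2:**
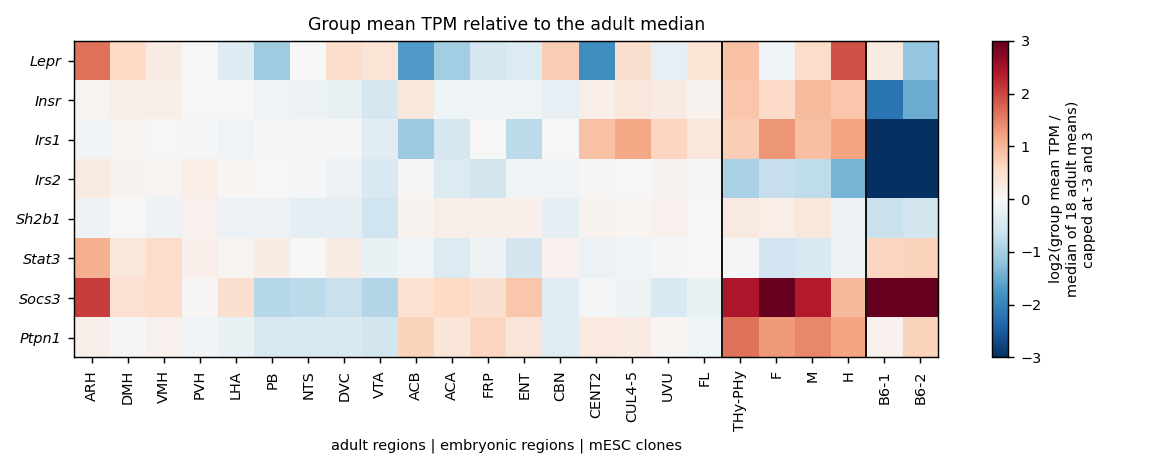
Log2 ratio of each group mean TPM to the median of the 18 adult region means, for the 8 genes (rows) in the 24 groups (columns), with colours capped at -3 and 3. ARH is red for Lepr (1.62), and the mESC clones are blue for Insr (-2.20 and -1.49).

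The first question was whether these genes differ between the hypothalamus and the rest of the adult brain. The 14 hypothalamic libraries were compared with the 43 libraries of the other 13 regions, each region with equal weight. Lepr, Stat3, Socs3 and Irs2 were higher in the hypothalamus and Irs1 and Ptpn1 lower, 6 of 8 genes, where 51.3% of all genes tested were called (26.9% higher, 24.3% lower). None of the 8 differed more than 2-fold, as 8.84% of all genes did. The median log2 fold change of the 8 was 0.11, against 0.00 over all genes. Against the 17 other adult regions, Lepr and Socs3 were each called in ARH and in no other hypothalamic nucleus. The log2 fold change of Lepr was 1.90 in ARH but -0.24 (PVH) to 0.45 (DMH) in the other nuclei. For Socs3 it was 2.18 in ARH and -0.25 (LHA) to 0.38 (VMH) in the others. The hypothalamus was not compared without ARH.

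Stat3 held 29.1 to 65.7 TPM (median 39.6) in the hypothalamus and 19.3 to 41.5 TPM (median 28.7) elsewhere. Most of these ranges overlapped, with 4 hypothalamic libraries above every other library. The log2 fold change was 0.41 ± 0.03 (SE; adjusted p = 6.65e-16, edgeR quasi-likelihood test with Benjamini-Hochberg adjustment over all genes, as for all gene tests below). Socs3 ranged from 1.52 to 8.63 TPM (median 2.19) against 0.260 to 4.62 TPM (median 1.58), a log2 fold change of 0.69 ± 0.12 (adjusted p = 3.15e-06). Only the 3 ARH libraries were above the others.

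Lepr ranged from 1.38 to 10.5 TPM (median 2.73) in the hypothalamus and from 0.264 to 6.63 TPM (median 1.78) elsewhere. Again the libraries overlapped, with 3 hypothalamic libraries above all others, and the log2 fold change was 0.65 ± 0.18 (adjusted p = 0.00213). Irs2 was higher by 0.18 ± 0.04 on the log2 scale (adjusted p = 0.000544). Irs1 fell by 0.15 ± 0.05 (adjusted p = 0.0068) and Ptpn1 fell by 0.14 ± 0.05 (adjusted p = 0.0127) on the log2 scale, small differences that were lost when TPM was tested in place of counts (adjusted p = 0.58 to 0.77, limma). Insr, with 12.5 to 20.2 TPM (median 14.4) against 6.31 to 18.9 TPM (median 13.3), did not pass the test, and the 95% interval of its log2 fold change ran from -0.02 to 0.11. For Sh2b1 the interval ran from -0.19 to 0.02, and without VTA replicate 1 it was called lower. All 5 microglia markers were higher in the hypothalamus (summed 78.5 to 111 TPM against 25.1 to 145 TPM), and all 5 erythrocyte markers and 4 of 5 endothelial markers were lower. Their part in these differences was not tested.

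Within the hypothalamus, ARH was set against the other 4 nuclei, since its neurons lie next to the median eminence and respond to circulating leptin. Lepr, Stat3 and Socs3, which are receptor, transducer and feedback inhibitor of the same chain, were all higher in ARH (3 of 8, with 23.7% of all genes called, 13.3% higher and 10.3% lower). Lepr and Socs3 differed more than 2-fold, as 6.9% of all genes did. The other 5 genes were not called.

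Socs3 in the other 4 nuclei ranged from 1.52 to 4.31 TPM (11 libraries), below each of the ARH libraries (5.60, 7.93 and 8.63 TPM). The log2 fold change was 1.95 ± 0.21 (3.87-fold, adjusted p = 4.37e-10). Stat3 ranged from 29.1 to 50.3 TPM in the other nuclei against 63.9 to 65.7 TPM in ARH, again without overlap, and the log2 fold change was 0.73 ± 0.07 (1.66-fold, adjusted p = 1.87e-12). Lepr in the other nuclei ranged from 1.38 to 8.01 TPM and overlapped with ARH through DMH replicate 1 (8.01 TPM), of which the coding transcripts Lepr-201 and Lepr-203 made up 1.92 and 0.234 TPM. Its log2 fold change, taken from counts, was 1.65 ± 0.35 (3.14-fold, adjusted p = 0.000227). For Insr the interval of the log2 fold change was -0.15 to 0.13, for Irs2 -0.09 to 0.27 and for Ptpn1 -0.03 to 0.36.

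Punches of ARH also differed from the other nuclei in the cells they held. All 5 tanycyte markers were higher (summed 182 to 252 TPM in ARH against 9.72 to 63.1 TPM), as were all 5 fibroblast markers (108 to 154 TPM against 19.9 to 40.02 TPM) and 2 of 5 pituitary markers (75.0 to 113 TPM against 0.822 to 18.5 TPM). All 5 oligodendrocyte markers (864 to 1382 TPM against 1293 to 11410 TPM) and 3 of 5 neuron markers (1770 to 1928 TPM against 2120 to 3172 TPM) were lower. These lists moved with Lepr, Stat3 and Socs3, and their part in the result was not tested.

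Because STAT3 acts at Socs3, the Socs3 promoter was read from RefSeq (GRCm38.p6) for the letters TTCNNNGAA, the spaced palindrome that STAT proteins bind. The window runs from 250 bases before to 50 bases after the RefSeq start, on the minus strand. The stretch below, chr11:117969472-117969560 on the minus strand, holds the match TTCTTAGAA in capitals, 154 to 146 bases before the start.
Socs3: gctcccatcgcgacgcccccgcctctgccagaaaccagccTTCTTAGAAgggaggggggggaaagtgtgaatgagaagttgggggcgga
The same letters occur in 2726 of 32851 RefSeq promoter windows (8.3%; the motif reads the same on both strands). They were in none of the windows found for Lepr, Irs1, Irs2, Sh2b1, Stat3 and Ptpn1. A match describes the letters and not binding.

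In the cortex, the comparison of ACA, FRP and ENT (9 libraries) with the 15 other adult regions called 7 of 8 genes, against 58.7% of all genes (28.9% higher, 29.8% lower). Ptpn1, Socs3 and Sh2b1 were higher and Lepr, Irs1, Stat3 and Irs2 lower, all by less than 2-fold (16.1% of all genes passed 2-fold). Ptpn1 held 20.8 to 33.0 TPM (median 27.8) in the cortex and 9.55 to 36.1 TPM (median 18.8) elsewhere, a log2 fold change of 0.68 ± 0.05 (adjusted p = 2.6e-16). Socs3 held 1.58 to 4.62 TPM (median 2.37) against 0.260 to 8.63 TPM (median 1.61), and was higher by 0.73 ± 0.14 on the log2 scale (adjusted p = 5.73e-06). Against the 17 other adult regions Socs3 was called in ENT (1.12) and FRP (0.71) but not in ACA (0.11). The ENT and FRP calls were lost when TPM was tested (limma). The cortex and the hypothalamus were thus both higher in Socs3 than their comparison regions while Stat3 was lower in the cortex, where it held 19.3 to 29.1 TPM (median 22.3) against 21.7 to 65.7 TPM (median 31.5). The Stat3 log2 fold change was -0.31 ± 0.04 (adjusted p = 1.13e-09). Sh2b1 was higher by 0.31 ± 0.06, Irs1 fell by 0.43 ± 0.06 and Irs2 fell by 0.26 ± 0.05 on the log2 scale. Lepr fell by 0.68 ± 0.23 (adjusted p = 0.01). All 5 immediate early genes (summed 208 to 566 TPM against 17.2 to 508 TPM) and all 5 microglia markers (107 to 144 TPM against 25.1 to 145 TPM) were also higher in the cortex. So were 4 of 5 neuron markers (3342 to 5321 TPM against 1770 to 4369 TPM). All 5 oligodendrocyte markers (555 to 1789 TPM against 864 to 15580 TPM), all 5 fibroblast markers (9.92 to 119 TPM against 15.3 to 154 TPM) and 4 of 5 astrocyte markers (318 to 516 TPM against 355 to 1218 TPM) were lower. The part of these lists in the differences was not tested.

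In the cerebellar cortex (CENT2, CUL4-5, UVU and FL, 15 libraries), 5 of 8 genes were called, 2 higher and 3 lower, against 66% of all genes (32.9% higher, 33.1% lower). None passed 2-fold, as 18% of all genes did. The main difference was in Irs1. It held 6.94 to 14.8 TPM (median 10.6) there and 2.60 to 7.79 TPM (median 5.81) in the other 42 libraries, with 12 of the 15 libraries above every other library. The log2 fold change was 0.80 ± 0.04 (1.74-fold, adjusted p = 9.5e-23). Insr was also higher, by 0.16 ± 0.03 (adjusted p = 5.36e-05). Stat3 fell by 0.31 ± 0.03 (adjusted p = 2.65e-12), Socs3 fell by 0.46 ± 0.13 (adjusted p = 0.00123) and Lepr fell by 0.53 ± 0.19 (adjusted p = 0.0131) on the log2 scale. The Lepr and Socs3 calls were lost when TPM was tested (adjusted p = 0.39 to 0.44 and 0.056 to 0.097, limma). Ptpn1 lay near the threshold and was called higher when any 1 of 9 libraries was left out, VTA replicate 1 among them (0.086 to 0.135 over libraries). The summed astrocyte markers lay at 986 to 1218 TPM in these 15 libraries and at 318 to 775 TPM in the other 42 (3 of 5 markers called higher). All 5 fibroblast markers (46.8 to 110.3 TPM against 9.92 to 154 TPM) and all 5 erythrocyte markers (845 to 6889 TPM against 406 to 3546 TPM) were higher as well, and all 5 microglia markers (25.1 to 60.7 TPM against 43.7 to 145 TPM) and 4 of 5 oligodendrocyte markers (1184 to 9917 TPM against 555 to 15580 TPM) lower. The part of these lists in the differences was not tested.

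The hindbrain nuclei (NTS, DVC and PB, 10 libraries) differed mainly in the inhibitors. In this comparison 4 of 8 genes were called, 1 higher and 3 lower, against 50.7% of all genes (26.1% higher, 24.6% lower), and none past 2-fold (7.84% of all genes). Socs3 held 0.260 to 1.66 TPM (median 1.09) against 0.722 to 8.63 TPM (median 1.78), and fell by 0.93 ± 0.16 on the log2 scale (1.90-fold, adjusted p = 1.25e-06). Ptpn1 held 11.7 to 18.1 TPM (median 14.47) in the hindbrain nuclei and 9.55 to 36.1 TPM elsewhere, and fell by 0.47 ± 0.06 (adjusted p = 5.18e-10). Insr fell by 0.16 ± 0.04 (adjusted p = 0.000506). Stat3 was higher by 0.11 ± 0.04 (adjusted p = 0.00835), a call that testing TPM did not give (adjusted p = 0.057, limma). Without VTA replicate 1 Sh2b1 was called lower too, and likewise without CENT2 replicate 1. Lepr was not called, with an interval of -0.20 to 0.61. All 5 oligodendrocyte markers were higher in these nuclei (summed 8576 to 12750 TPM against 555 to 15580 TPM) and all 5 immediate early genes lower (39.6 to 65.5 TPM against 17.2 to 566 TPM), and their part was not tested.

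**Figure D3:**
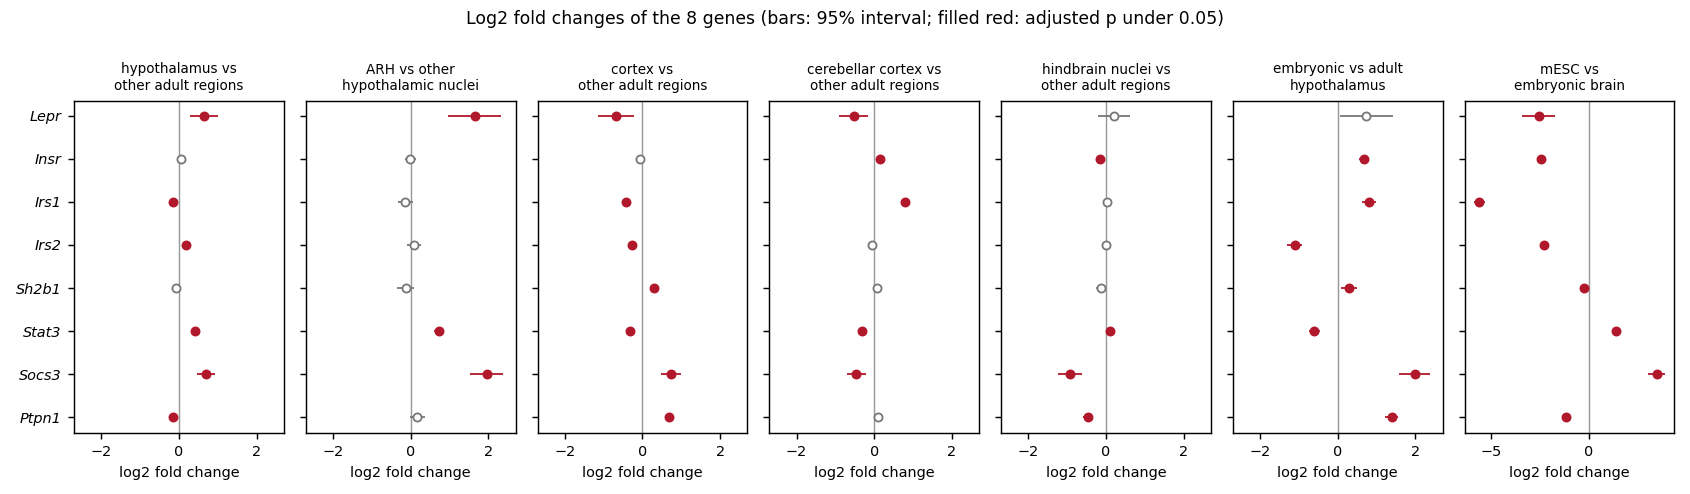
Log2 fold changes of the 8 genes in the regional and stage comparisons, 1 panel each, with 95% intervals as bars, a wider axis in the mESC panel and filled red points for an adjusted p under 0.05. Irs1 lies at 0.80 in the cerebellar cortex panel, Socs3 at 1.95 in the panel of ARH against the other hypothalamic nuclei, and Irs1 at -5.62 in the mESC panel.

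The embryonic hypothalamus (THy-PHy) was compared with the 5 adult nuclei. Ptpn1, Socs3, Irs1, Insr and Sh2b1 were higher in the embryo and Irs2 and Stat3 lower, 7 of 8 genes against 67.5% of all genes (33.9% higher, 33.6% lower). Of these Socs3, Ptpn1 and Irs2 differed more than 2-fold (38.2% of all genes). Ptpn1 held 56.1, 81.0 and 49.1 TPM in the embryo and 15.5 to 23.6 TPM (median 19.6) in the adult, with no overlap and a log2 fold change of 1.39 ± 0.09 (2.61-fold, adjusted p = 1.35e-19). Irs2 went the other way, with 20.7, 17.9 and 13.6 TPM against 34.6 to 43.6 TPM (median 37.6), also without overlap, and fell by 1.10 ± 0.10 on the log2 scale (2.15-fold, adjusted p = 1.91e-14). Irs1, with 10.4, 11.48 and 8.76 TPM against 4.77 to 7.28 TPM, rose by 0.81 ± 0.09 (adjusted p = 1.73e-11). The 2 insulin receptor substrates thus moved in opposite directions between these stages.

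Socs3 held 13.02, 8.44 and 7.14 TPM in the embryonic hypothalamus and 1.52 to 8.63 TPM (median 2.19) in the adult, where the ARH libraries formed the top of the range. Its log2 fold change was 1.98 ± 0.20 (3.94-fold, adjusted p = 1.2e-12). Stat3, with 27.8, 34.3 and 27.8 TPM, fell by 0.60 ± 0.07 (adjusted p = 9.08e-11). Insr (24.01, 32.3 and 17.49 TPM) rose by 0.67 ± 0.07 and Sh2b1 (67.5, 65.4 and 62.4 TPM) by 0.30 ± 0.11 (adjusted p = 0.0101), of which the Sh2b1 call was not made on TPM (adjusted p = 0.11, limma). Lepr as a gene did not pass (log2 fold change 0.74 ± 0.35, interval 0.05 to 1.42, adjusted p = 0.0591), although its transcripts differed, as described below. Fibroblast, tanycyte and erythrocyte markers (5 of 5 each) were higher in the embryo and astrocyte, oligodendrocyte and microglia markers (5 of 5 each) lower. The summed tanycyte markers lay at 72.6 to 98.1 TPM in the embryo, inside the adult range of 9.72 to 252 TPM, and below ARH (182 to 252 TPM). The fibroblast markers summed to 551 to 785 TPM in the embryo against 19.9 to 154 TPM, and the astrocyte markers to 125 to 149 TPM against 555 to 767 TPM. Their part was not tested.

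All 8 genes differed between the mESC clones and the embryonic brain, against 77.6% of all genes (38.7% higher, 38.9% lower), and 7 of them by more than 2-fold (55.8%). Socs3 and Stat3 were higher in the mESC and the other 6 genes were lower. The mESC were grown with LIF, a cytokine that signals through STAT3, and its part in the difference was not tested. It cannot be told apart from cell type, batch and the other additions to the medium. Socs3 held 55.2 to 71.3 TPM in the 4 mESC libraries and 1.41 to 16.5 TPM (median 7.77) in the 9 embryonic libraries, a log2 fold change of 3.47 ± 0.22 (11.1-fold, adjusted p = 9.62e-21). Stat3 held 48.1 to 50.4 TPM against 20.6 to 34.3 TPM (median 27.8), a log2 fold change of 1.37 ± 0.06 (2.59-fold, adjusted p = 6.99e-26). Neither gene overlapped between the groups.

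Irs1 showed the largest difference of any of the 8 genes in these comparisons. It held 0.193 and 0.160 TPM in B6-1 and 0.232 and 0.205 TPM in B6-2, against 8.76 to 15.7 TPM (median 11.48) in the embryonic brain, and fell by 5.62 ± 0.14 on the log2 scale (49.1-fold, adjusted p = 5.78e-38). Insr fell by 2.45 ± 0.08 (5.46-fold, adjusted p = 4.17e-33) and Irs2 fell by 2.29 ± 0.10 (4.89-fold, adjusted p = 1.24e-26), each without overlap, so that the insulin receptor and its main adaptors were all lower in the clones. Ptpn1 fell by 1.15 ± 0.10 (2.23-fold, adjusted p = 2.95e-15). Lepr fell by 2.58 ± 0.43 (5.98-fold, adjusted p = 4.15e-07) in counts, although B6-1 replicate 1 had 5.00 TPM against 0.994, 1.20 and 1.04 TPM in the other 3 clone libraries. Sh2b1 fell by 0.28 ± 0.11 (adjusted p = 0.016), and this call was lost with DESeq2 (adjusted p = 0.289). Markers of brain cells moved with these genes, with all 5 neuron (summed 186 to 222 TPM against 1017 to 3101 TPM), microglia, fibroblast and tanycyte markers lower in the clones, and their part was not tested.

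The transcript files split the Lepr signal between the forms printed above. Lepr-201, the long form, was concentrated in the hypothalamus. ARH held 3.81, 3.04 and 3.26 TPM, DMH 1.92, 1.41, 1.81 and 1.45 TPM and VMH 1.42 and 1.81 TPM. These 9 libraries were higher than all 43 libraries outside the hypothalamus, of which the highest, DVC replicate 3, had 1.20 TPM. PVH (0.826 and 0.798 TPM) lay above every PB library (mean 0.672 TPM) but not above VTA (mean 0.931 TPM) or DVC (0.897 TPM). The PVH mean exceeded that of NTS (0.595 TPM), but NTS replicate 1 held 0.902 TPM. LHA (mean 0.594 TPM) did not stand above VTA, DVC, PB or NTS. ACA had a mean of 0.537 TPM, and no region of the cerebellar cortex had a mean above 0.123 TPM.

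Of the short forms, Lepr-203 was spread differently. Its adult means were highest in CBN (4.26, 0.796 and 1.44 TPM), ARH (1.58, 1.34 and 1.25 TPM) and CUL4-5 (2.37, 0.683, 0.754 and 0.611 TPM). The embryonic hindbrain had 2.45 to 5.79 TPM. Lepr-202 was listed at 0 in most libraries, and its highest adult value was 0.355 TPM.

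**Figure D4:**
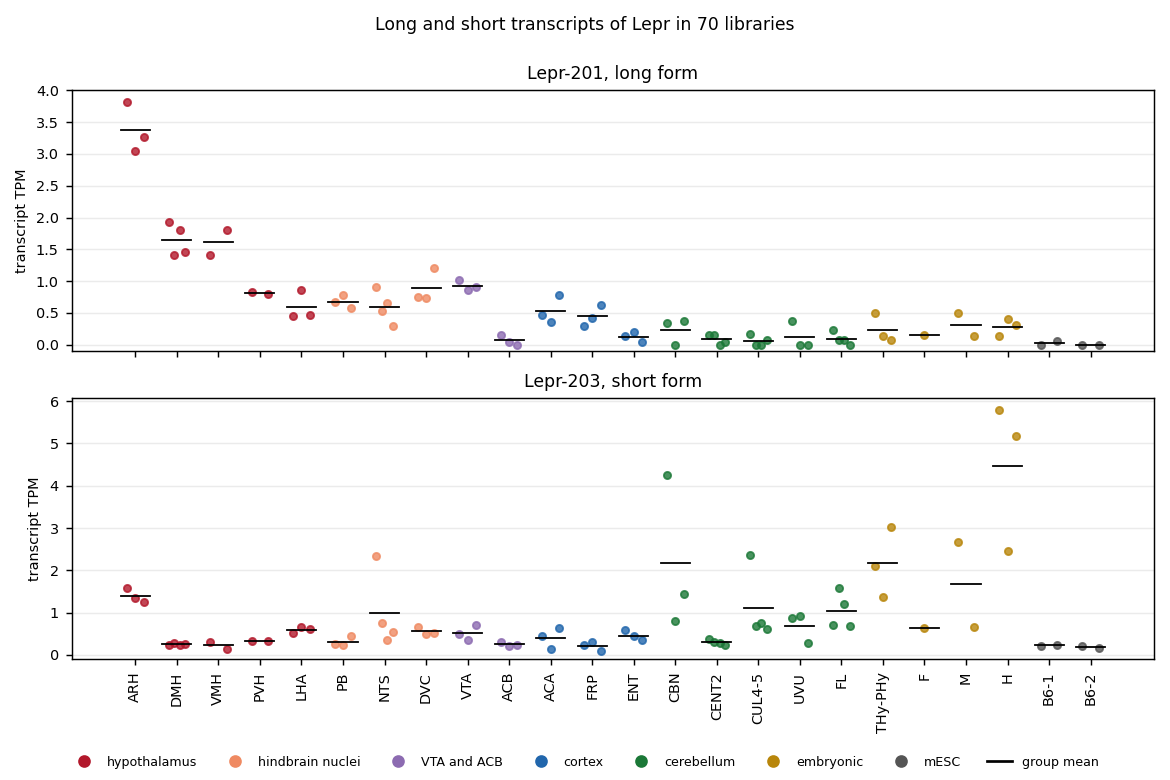
TPM of the long transcript Lepr-201 and the short transcript Lepr-203 in each of the 70 libraries, by group, with points for libraries and a line for the group mean. Lepr-201 is highest in ARH (3.04 to 3.81 TPM) and near 0 in the mESC clones, whereas Lepr-203 is highest in H (2.45 to 5.79 TPM).

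A transcript-level test was added after these values had been seen (limma-voom over 72884 transcripts, Benjamini-Hochberg adjustment over all of them). In the hypothalamus against the other adult regions Lepr-201 was higher by 2.68 ± 0.28 on the log2 scale (adjusted p = 6.2e-11; 18.6% of all transcripts were called, 10.3% higher and 8.34% lower), whereas Lepr-203 was not called (-0.31 ± 0.29, adjusted p = 0.548). In ARH against the other nuclei both were higher, Lepr-201 by 1.60 ± 0.40 (adjusted p = 0.00781) and Lepr-203 by 2.00 ± 0.47 (adjusted p = 0.00407; 5.09% of transcripts called, 2.82% higher and 2.27% lower). In the cerebellar cortex Lepr-201 fell by 3.47 ± 0.39 (adjusted p = 1.7e-10; 38.4% called, 21.3% higher and 17.1% lower) and Lepr-203 was not called (0.30 ± 0.26). The hindbrain nuclei, where the gene as a whole was not called, were higher in Lepr-201 by 1.36 ± 0.33 (adjusted p = 0.00168; 20.1% called, 11.6% higher and 8.52% lower). In the cortex neither form was called (-0.06 ± 0.41 and -0.65 ± 0.35, where 25.6% of transcripts were called, 13.1% higher and 12.5% lower), although limma on transcript TPM called Lepr-203 lower (-0.62, adjusted p = 0.0456).

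From the adult to the embryonic hypothalamus the forms moved in opposite directions. Lepr-201 had 0.495, 0.141 and 0.0775 TPM in THy-PHy and 0.455 to 3.81 TPM in the adult nuclei, and fell by 2.87 ± 0.75 on the log2 scale (adjusted p = 0.00196; 34.6% of transcripts called, 17.6% lower). Lepr-203 had 2.10, 1.38 and 3.04 TPM in THy-PHy and 0.143 to 1.58 TPM in the adult nuclei, and rose by 2.17 ± 0.40 (adjusted p = 1.5e-05; 17% called higher). In the mESC clones both were lower than in the embryonic brain (-3.40 ± 0.73 and -2.65 ± 0.56, with 49.2% of transcripts called, 24.8% higher and 24.3% lower). Lepr-201 was listed at 0 in 3 of the 4 clone libraries.

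The share of Lepr TPM on Lepr-201 was 48.0% ± 21.2 (SD) over the 14 hypothalamic libraries and 20.8% ± 19.6 (SD) over the 43 others, a difference of 27.2 percentage points (two-sided permutation test over libraries, p = 0.0001, adjusted p = 0.0006 over the 6 genes with several transcripts). The ranges, 21.7% to 85.2% and 0.00% to 59.8%, overlapped. With region means in place of libraries the difference was 25.8 points (exact permutation test, adjusted p = 0.0497), and within the 3 full-length transcripts the shares were 73.0% and 33.2%. Insr, Sh2b1, Stat3, Socs3 and Ptpn1 showed no called difference in the share of their main transcript: 91.3% and 90.1% for Insr, 39.9% and 42.9% for Sh2b1, and 73.0% and 74.1% for Stat3. Irs1 and Irs2 have 1 transcript each.

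Part of the Lepr TPM rests on very few reads. The 4 other annotated Lepr transcripts are fragments of 208 to 889 bases, and because TPM divides by length, 1 estimated read on Lepr-205 gave 2.89 TPM and 1 on Lepr-206 gave 0.428 TPM, against 0.0261 TPM on Lepr-201 (medians over libraries). These fragments carried 18.2% (PB) to 91.6% (B6-1) of Lepr TPM in the group means. In ARH they made 2.93 of 7.69 TPM from 6.58 estimated reads, where the full-length transcripts had 212. In H they made 4.58 of 9.33 TPM from 8.31 estimated reads, where the full-length transcripts had 224. The gene TPM of Lepr in single libraries, DMH replicate 1 among them, therefore carries this weight, while the tests on counts do not.

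**Figure D5:**
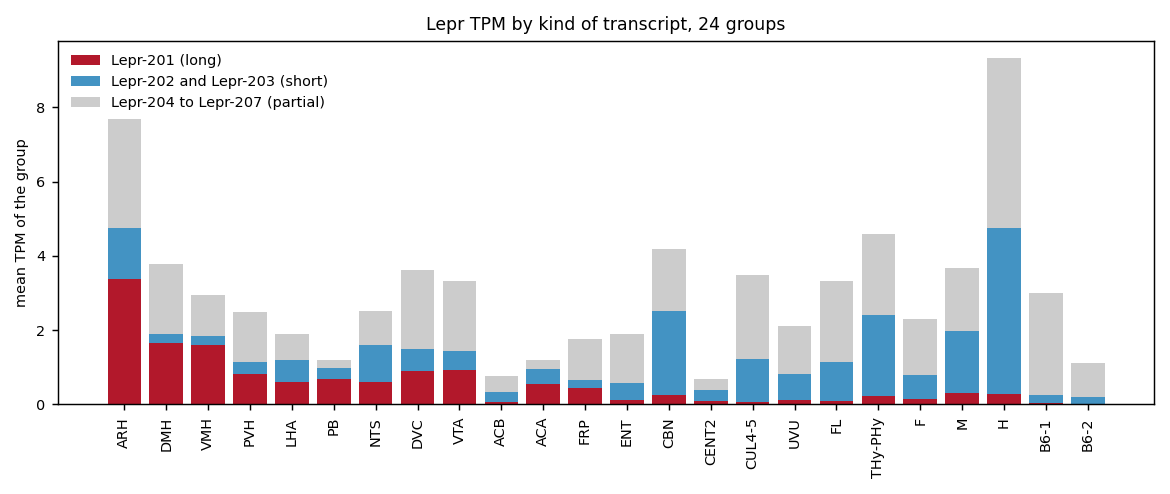
Mean Lepr TPM of each of the 24 groups, stacked into the long transcript, the short full-length transcripts and the 4 partial ones. The long form makes up 70.8% of the full-length TPM in ARH and 87.6% in VMH, but 9.45% in CBN and 5.92% in H.

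Lepr-203 also went with the choroid plexus genes in the punches. Pearson's r between Lepr-203 TPM and the summed choroid plexus markers was 0.63 over the 57 adult libraries and 0.67 over the 18 region means, on a log scale and with libraries of a region sharing their dissection. For Lepr-201 it was -0.11 and -0.17. CBN replicate 1 (4.26 TPM of Lepr-203) had 12710 TPM on these markers and NTS replicate 1 (2.33 TPM) had 10670 TPM. CUL4-5 replicate 1 (2.37 TPM) had 13.3 TPM and the ARH libraries (1.25 to 1.58 TPM) had 32.6 to 44.4 TPM. FL replicate 2 (1.58 TPM) had 3073 TPM, CBN replicate 3 (1.44 TPM) had 5404 TPM and FL replicate 3 (1.21 TPM) had 643 TPM. Libraries with much Lepr-203 included some with much choroid plexus RNA and some with little. The part of choroid plexus RNA in the Lepr-203 levels was not tested.

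The hormones themselves were all but absent from the libraries. Lep was at 0 counts in 61 of 70 libraries, with at most 2 counts in a library. Ins1 was at 0 in all 70 libraries. Ins2 was at 0 in 56 libraries and highest in CBN replicate 1 (2.89 TPM from 10 counts). By contrast Igf2, which encodes a growth factor that also binds the insulin receptor, was found in every library, at 87.6, 105 and 173 TPM in ARH and at 338, 376 and 509 TPM in THy-PHy.

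A list of 48 further genes of the same pathways (ligands, related receptors, adaptors, JAK and STAT proteins, inhibitors and the PI3K, AKT and mTOR chain) was counted alongside, of which 46 were tested. In the hypothalamus 13 were higher and 20 lower, 33 of 46 where 51.3% of all genes were called (26.9% higher, 24.3% lower). The PI3K, AKT and mTOR genes made up 11 of those lower (1 of 17 higher). The median log2 fold change of the list was -0.08 against 0.00 over all genes. The adaptor Irs4 differed most, with 9.45 to 119 TPM (median 24.8) in the hypothalamus and 0.00 to 8.67 TPM (median 0.403) elsewhere, a log2 fold change of 5.68 ± 0.21 (adjusted p = 1.76e-28), and no library overlapped. Grb10, an adaptor that inhibits the insulin receptor, was higher by 1.58 ± 0.07 and the kinase Akt2 lower by a log2 fold change of -0.93 ± 0.04. Within the hypothalamus, ARH had 13 genes of the list higher and 8 lower (23.7% of all genes called), and Irs4 (95.4, 105 and 119 TPM against 9.45 to 46.9 TPM), Igf2 and the transcription factor Stat5a differed most, by 2.25 ± 0.35, 2.07 ± 0.45 and 1.47 ± 0.19.

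In the other comparisons the list counted 19 higher and 17 lower in the cortex (58.7% of all genes called), 21 and 17 in the cerebellar cortex (66%), and 17 and 19 in the hindbrain nuclei (50.7%). Irs4 was lower in the cortex and the cerebellar cortex (medians of 0.0791 and 0.101 TPM, with libraries at 0), and higher in the hindbrain nuclei (1.24 ± 0.27). Further genes with large differences were Stat5a and the adaptor Gab1, lower in the cortex (-1.63 ± 0.14 and -1.60 ± 0.08), Insrr, an insulin receptor relative, higher in the cerebellar cortex (2.16 ± 0.17), the phosphatase Ptprf, lower there (-1.71 ± 0.07), and Igf1 and Foxo1, lower in the hindbrain nuclei (-1.01 ± 0.20 and -0.78 ± 0.07). The embryonic hypothalamus had 21 genes higher and 14 lower than the adult (67.5% of all genes called), led by Igf2 (3.67 ± 0.41), Insrr (2.89 ± 0.32) and the adaptor Sh2b2 (2.02 ± 0.13). In the mESC clones 16 were higher and 25 lower (77.6% of all genes called), with Igf2 at 0.732 to 3.30 TPM against 97.2 to 1342 TPM in the embryonic brain. Igf1 and Insrr were lower there too, with clone libraries at 0.

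As a description of likeness, Pearson's r of log2(group mean TPM + 0.5) over the 24 groups was taken against all genes that reached 5 TPM in a group. The gene most like Stat3 was AI467606 (r = 0.92), and the next 4 were Srpr, Tmem248, Ucp2 and Pdlim5 (0.88 to 0.86). Lepr had no close match, with Ctf1 first at 0.78. The genes first for the others were Zkscan1 for Insr (0.98), Gm9747 for Irs1 (0.97), Ttyh1 for Irs2 (0.98), Trafd1 for Sh2b1 (0.94), Pabpc4 for Socs3 (0.97) and Bag6 for Ptpn1 (0.95). Among the 8 themselves, over the 18 adult regions, the closest pairs were Sh2b1 and Ptpn1 (0.80), Insr and Irs2 (0.63), Insr and Sh2b1 (0.63), and Lepr and Stat3 (0.62). The region means behind these values include VTA replicate 1, the lowest adult library for Insr, Irs2, Sh2b1 and Ptpn1. The correlations were not taken without that library. Over the 24 groups, Insr and Irs1 (0.90) and Irs2 and Socs3 (-0.84) stood out, values that the mESC clones and the embryonic regions share in setting.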

How the data were processed

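The libraries were strand-specific poly(A) RNA-seq (KAPA kits) read on a HiSeq2000. The authors aligned the reads to Ensembl GRCm38 transcripts with Kallisto and deposited estimated counts and TPM per transcript for each sample. They summed TPM per gene in the deposited gene table, which was the source of the TPM levels. The gene tests used the estimated counts that the authors deposited, summed here per gene through GENCODE M21 (0.42% to 0.77% of counts per library were on transcripts with no match) and rounded to whole numbers. Genes were filtered with edgeR's filterByExpr, which left 19980, scaled by TMM and fitted with edgeR 4.0.16 quasi-likelihood (R 4.3.3) over all 70 libraries with a term per group. Calls were made at an adjusted p under 0.05 (Benjamini-Hochberg over all genes tested), and intervals are 95%. Each group of regions was compared as the mean of its regions. Transcripts were tested with limma 3.58.1 (voom). Shares of transcripts were compared with permutation tests (100000 resamples, or all 8568 groupings of region means).

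Groups came from the sample labels. Replicate libraries differed by more than sampling noise (74 pairs, chi-square per gene of 2.59 or more). Replicate numbers did not pair libraries across groups (correlation of deviations between same-numbered libraries -0.20 to 0.39, median 0.01). Depth limits Lepr and Socs3 most, and intervals cover the spread between libraries. Alternatives were DESeq2 1.42.0, no filter on low counts, limma on log2(TPM + 0.5) and log2(TPM + 0.1), a replicate block, a stricter call with an absolute log2 fold change above 1, regions left out and each library left out. Leaving out libraries used a Wald form of the quasi-likelihood test with the dispersions of all libraries. On simulated counts for the hypothalamus comparison (19081 genes), 58 of 96 genes changed 1.5-fold and 78 of 97 changed 2-fold were called, with 11 false calls. The simulation held no other differences between regions and took its dispersions from a formula. In the data 51.3% of genes were called in this comparison, so the simulated rates need not hold there. The 8 genes, the pathway list and the marker lists were chosen with earlier results of these data known. All 8 genes were described in each comparison. Of the pathway list, the 3 called genes with the largest absolute log2 fold change were named per comparison, with the ligands Lep, Ins1, Ins2 and Igf2, and as most like a gene the 5 with the highest Pearson's r. Sequences and loci are from GENCODE M21 (GRCm38) and RefSeq (GRCm38.p6). Lepr transcripts share most of their bases: 18.4% of the 31-base words of Lepr-201 and 40.3% of those of Lepr-203 occur in no other annotated transcript, so splits between transcripts from short reads are estimates.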

Additional observations from a re-analysis of the deposited data

Results flagged for a closer look

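In groups of 4 libraries, 50 combinations of a gene or Lepr transcript and a group were looked at for a lone library far from the other 3 by Dixon's test, and 3 were found. Chance alone gives such a library in about 1 in 20 groups. Sh2b1 was at 52.1 TPM in NTS replicate 1 and at 39.8 to 41.8 TPM in the other 3 NTS libraries. Stat3 was at 31.7 TPM in CENT2 replicate 1 and at 25.5 to 26.2 TPM in the others. Lepr-203 was at 2.37 TPM in CUL4-5 replicate 1 and at 0.611 to 0.754 TPM in the others.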

How the results depend on the processing

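Counts of called genes stayed within 1.5 times the reported ones under DESeq2, no filter on low counts, limma on TPM with either pseudocount, the replicate block, the mESC libraries left out, and LHA or FL left out. With a stricter call, an absolute log2 fold change above 1 beside the adjusted p, no gene of the 8 was left in the hypothalamus, cortex, cerebellar cortex and hindbrain comparisons (0 each), 3 were left in the embryonic comparison, 5 among the 18 regions and 9 of the pairs of gene and region. Leaving out each library in turn gave 6 to 7 genes in the hypothalamus, 3 in ARH, 7 to 8 in the cortex, 5 to 6 in the cerebellar cortex, 3 to 5 in the hindbrain, 7 to 8 in the embryonic and 7 to 8 in the mESC comparison. For the transcript shares only the 14 hypothalamic libraries were left out in turn, and the difference in the share of Lepr-201 stayed between 24.3 and 29.2 points.

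Of single genes, those that turned direction were not called in either setting. On limma's log2(TPM + 0.1) and log2(TPM + 0.5) these were Sh2b1 in the hypothalamus (0.009 and 0.008), Insr in ARH (0.007 and 0.007), Irs2 in the cerebellar cortex (0.11 and 0.11), Lepr in the hindbrain (-0.001 and -0.03) and Irs2 in the hindbrain (-0.01 and -0.011). By counts in place of TPM, the share differences of Socs3 (0.22 points) and Ptpn1 (1.65 points) turned. With a library left out, Insr in ARH ranged from -0.041 to 0.016, Irs2 in the hindbrain from -0.002 to 0.021, Lepr-201 in the cortex from -0.18 to 0.11, Lepr-203 in the hindbrain from -0.031 to 0.27 and the Ptpn1 share from -1.28 to 0.69 points. Sh2b1 in the hindbrain was called lower with DESeq2 (-0.13, adjusted p = 0.0475). Ptpn1 in the cerebellar cortex was called higher without FL, without the filter, without the mESC libraries and on TPM (0.115 to 0.146). Stat3 in the hindbrain was lost without DVC replicate 1 (0.07 to 0.14 over libraries), Sh2b1 in the mESC comparison without B6-2 replicate 1 or H replicate 3 (-0.34 to -0.20), and Lepr in the embryonic comparison was called without THy-PHy replicate 2 (0.43 to 0.99). With the replicate block, although the numbers pair no samples, Lepr was called in the embryonic comparison (0.72, adjusted p = 0.0388) and 51 pairs of gene and region were called, and the other counts of called genes were 6, 3, 7, 5, 4, 8 and 8 in the order above with the 18 regions last. The cause of these changes was not tested.

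On TPM the split of calls over all genes shifted: the share of calls that were higher went from 52.5% to 66.6% and 67.7% (pseudocounts 0.5 and 0.1) in the hypothalamus, from 49.2% to 37.1% and 37.4% in the cortex, from 49.9% to 61.4% and 61.4% in the cerebellar cortex and from 49.8% to 40.5% and 39.9% in the mESC comparison. The median of all genes moved by more than 0.1 on the log2 scale in the cerebellar cortex (to 0.10) and the mESC comparison (to -0.23 and -0.31, and to 0.14 with DESeq2). In the cortex it moved less, from -0.033 to -0.09 and -0.114 (pseudocounts 0.5 and 0.1).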
